A study of Danio rerio with 2 samples.

Results

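The genes described here are those of ciliary transport, basal bodies and axonemal dyneins whose symbol on the array fits a fixed pattern of names: IFT, BBS (with ttc8), axonemal dynein chains and their assembly factors, radial spoke heads, tektins, numbered Spag genes, transition zone genes, Arl13, polycystin-2, numbered Cep genes and ofd1. The pattern found 77 probes for 40 gene symbols, of 43553 probes for 27420 genes and targets on the array. Total RNA was hybridized to Agilent arrays of zebrafish oligonucleotide probes, in 1 colour, and 1 array of Tg(RE:HSE:EGFP) embryos and 1 array of WT AB embryos were analysed. The Tg(RE:HSE:EGFP) embryos were the F2 generation, on the AB background, of a line made with a plasmid in which a heat-inducible bidirectional promoter drives the human RUNX1-Evi-1 fusion gene together with EGFP. Embryos of both groups were heat shocked at 38 °C for 1 h at 16 hpf (the labels give 14 to 18 hpf) and taken at 72 hpf, that is 3 dpf, although the series text can be read as counting the hours after the heat shock. The heat-inducible promoter is not restricted to a cell type, no selection of embryos by EGFP is described for the arrays, and 0 probes are named for EGFP, so the transgene could not be checked. The study's results call the compared material blood cells of larvae, but its methods describe no separation of blood cells before RNA isolation. Markers of muscle (19 of 19 with a probe), neurons (16 of 16) and red cells (18 of 18) were all above background on at least 1 array, so the RNA is read as that of whole embryos.

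Cilia are hair-like projections built on a basal body, which is a modified centriole. Intraflagellar transport (IFT) carries building blocks along the axoneme in trains of IFT-B and IFT-A complexes, moved outward by kinesin-2 and back by cytoplasmic dynein-2, and the BBSome links membrane proteins to these trains. Motile cilia also hold axonemal dyneins, radial spokes and tektins, and in zebrafish embryos they drive fluid flow in Kupffer's vesicle, the pronephros, the spinal canal and the nose, while photoreceptor outer segments are modified cilia and olfactory neurons carry cilia that do not beat.

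Every value below is a log2 level of the normalized signal or a log2 difference between the arrays, taken as the array labelled Tg(RE:HSE:EGFP) (the Tg array) minus the array labelled WT (the WT array). The files hold no flags for background, so a probe was counted as above background when it exceeded the 95th percentile of the 172 receptor probes (receptors for odorants, tastants and trace amines), a log2 level of 6.73 on the Tg array and 6.72 on the WT array. Medians over all probes were 7.17 on the Tg array and 7.18 on the WT array, 56.9% of probes on the Tg array and 57.0% on the WT array exceeded the limit, and Pearson's r between the arrays, computed across probes and not across independent replicates, was 0.980. The study describes its samples as analysed in triplicate. With 1 array per group analysed here, and whether each stands for several embryo pools not given in the sources used here, there is no spread between replicates, no test was possible, and a batch cannot be told apart from a group. How precise each value is depends on this number of arrays.

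The direction of the differences is that of the labels. For hdac4 and h1fx the sign found here is the opposite of the direction the study gives, and for a probe of h1fx the study lists the same pair of levels under exchanged groups. Other genes stand on both sides. The sign is also opposite for c-myb in its qRT-PCR, but the study's text gives those values only for fish older than the embryos of the arrays. The myb probes above background here differed by -1.03, -0.96 and 0.13. For gata1 in the study's qRT-PCR and for DNA replication genes the sign is the same. The study also lists the cell cycle pathway as upregulated. Here a list of 25 proliferation markers, mcm2 to mcm7 among them, had a median difference of -0.59, with 21 below 0 and 4 above 0. That is the opposite direction, although the list is not the study's own set of cell cycle genes. Its mcm genes are also the DNA replication genes whose sign is the same as the study's. They thus stand on both sides of this comparison. On the deposited values, the log2 level of h1fx was 10.02 on the Tg array and 11.36 on the WT array with 1 probe, and 10.34 on the Tg array and 11.46 on the WT array with its other probe. The log2 level of hdac4 was 6.70 on the Tg array and 7.88 on the WT array with 1 probe, and 11.03 on the Tg array and 11.37 on the WT array with its other probe. Neither is the pair of hdac4 levels that the study lists, in either order of the groups. The erythroid factor gene gata1a had log2 differences of -0.95 and -0.29 by its 2 probes, and the replication helicase genes mcm2 to mcm7 ran between -0.89 (mcm2) and -1.29 (mcm7). Which labels are right was not settled by these values. If the labels of the arrays were exchanged, every sign below would turn, while sizes and the order within the list would stay.

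No cilia gene above background on both arrays differed 2-fold between them. Of the 40 genes, 32 were above background on at least 1 array (80.0%, against 59.2% of all genes). A gene is read here by its brightest probe. By probe the shares lay closer, with 49 of 77 for the cilia genes and 26256 of 43553 for the array. Of the 32 genes, 0 were counted as at least 2-fold higher and 0 as at least 2-fold lower on the Tg array. For pkd2 and tekt2, above background on 1 array, the count is by a bound that does not exclude more. Of 16220 genes above background in the series, 4.72% were 2-fold higher and 3.51% were 2-fold lower. At 1.5-fold, 3 of the 32 were higher (ift27, ttc8 and bbs4) and 3 lower (bbs12, bbs1 and cep55l), or 9.38% each, against 12.3% higher and 12.5% lower over all genes. The median difference over the 30 cilia genes above background on both arrays was 0.07, with 16 above 0 and 14 below 0. Over 14503 genes above background on both arrays the median was -0.03, with 47.3% above 0. Their differences ran from -0.75 to 0.78 with an SD of 0.42, against an SD of 0.59 over all genes, whose 5th and 95th percentiles were -0.88 and 0.94.

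**Figure D1:**
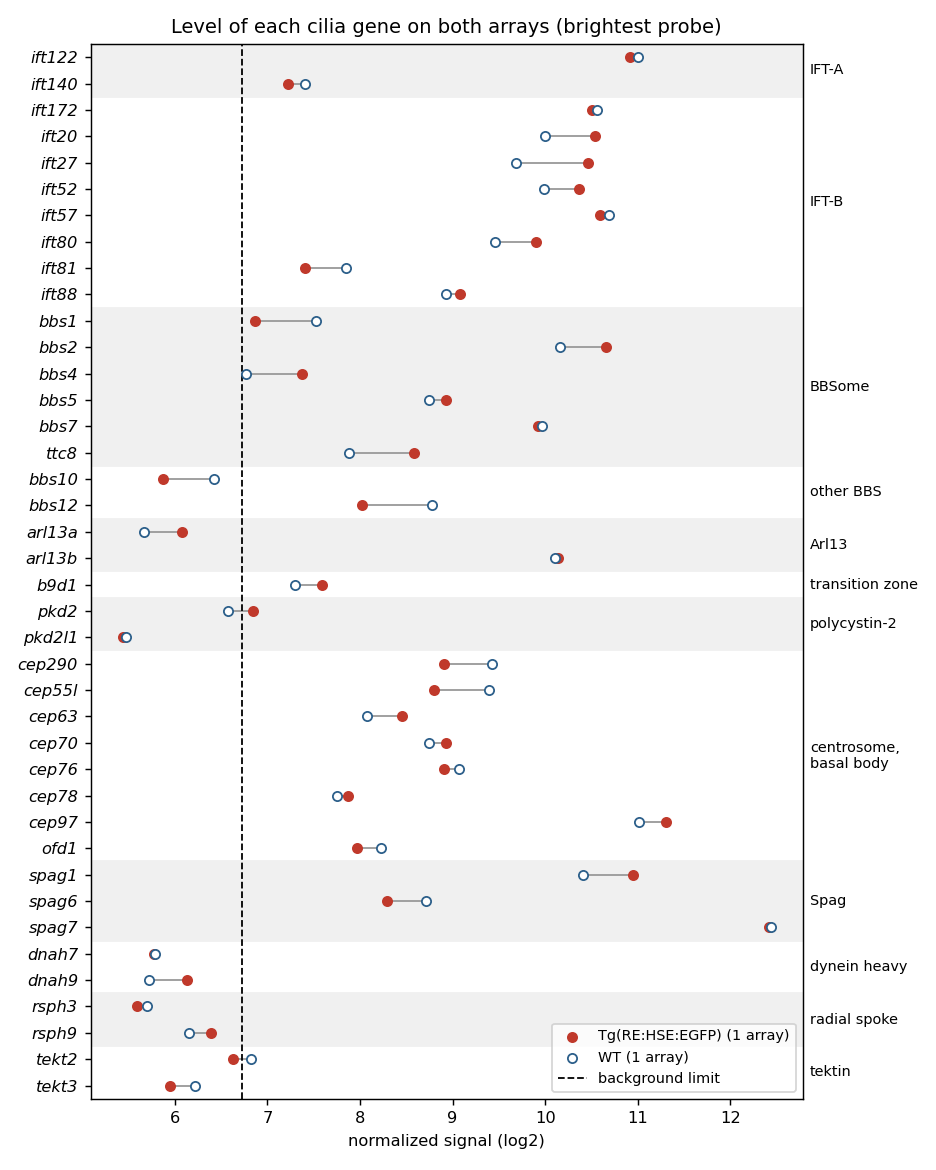
Normalized log2 signal (x axis) of the brightest probe of each of the 40 cilia genes (rows, grouped by role), with filled points for the Tg(RE:HSE:EGFP) array, open points for the WT array and a dashed line at the background limit (6.73 on the Tg array). The transport and centrosomal genes lie right of the limit on both arrays, while 8 genes, among them the dynein heavy chains and the radial spoke genes, lie left of it on both.

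Of the genes for transport along the cilium, all 16 were above background on both arrays, with a median difference of 0.17, 9 above 0 and 7 below 0. Among the 8 IFT-B genes the median difference was 0.27, with 5 above 0 and 3 below 0. The gene ift27 encodes a small Rab-like GTPase of the IFT-B train. Its log2 level was 10.47 on the Tg array and 9.68 on the WT array, a difference of 0.78 or 1.72-fold, which is the highest of the 30 cilia genes and below the 95th percentile of all genes. It was read by 1 probe, at chr6:371403-371462, so no other probe of the gene can be set beside it.

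For ift20, whose protein also works at the Golgi in sending membrane proteins to the cilium, the log2 level was 10.54 on the Tg array and 9.99 on the WT array, a difference of 0.55. The other ift20 probe differed by 0.63, but the probes, at chr15:23924537-23924596 and chr15:23924485-23924544, share 8 bases. The IFT-B core gene ift52 had log2 levels of 10.36 on the Tg array and 9.98 on the WT array, a difference of 0.38, and 0.44 with its other probe above background. Both genes were thus higher on the Tg array with each of their probes above background. With a single probe, ift80 had log2 levels of 9.90 on the Tg array and 9.46 on the WT array, a difference of 0.44. The gene ift88, which is needed for cilia to form in zebrafish and mouse, had log2 levels of 9.09 on the Tg array and 8.93 on the WT array, a difference of 0.15, and 0.30 with its other probe above background.

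The remaining IFT-B genes did not lie on the same side. The log2 level of ift57 was 10.60 on the Tg array and 10.69 on the WT array, and its probes differed by -0.09 and -0.02. For ift172, a large subunit at the edge of the train, the log2 level was 10.51 on the Tg array and 10.56 on the WT array, and its probes differed by -0.05 and 0.23, on either side of 0. The tubulin-binding subunit ift81 had log2 levels of 7.41 on the Tg array and 7.85 on the WT array, a difference of -0.45, the lowest of the group. Its other probes were not above background on both arrays and differed by -0.22 and 0.05.

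Both IFT-A genes were close to 0. The gene ift122 had log2 levels of 10.92 on the Tg array and 11.00 on the WT array, a difference of -0.09, but its 4 probes, all above background, ran from -0.09 to 0.44. The single probe of ift140 gave log2 levels of 7.23 on the Tg array and 7.41 on the WT array, a difference of -0.18.

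**Figure D2:**
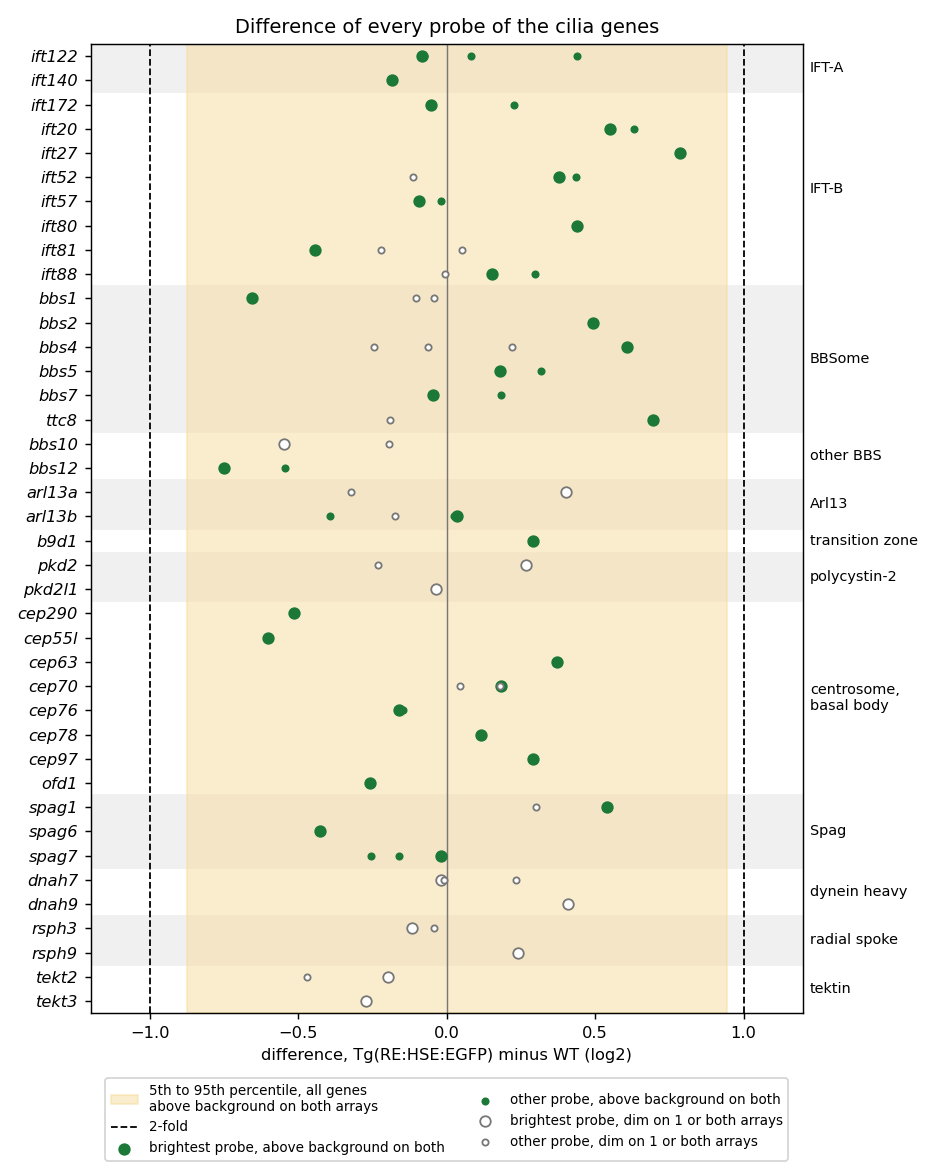
Log2 difference, Tg(RE:HSE:EGFP) minus WT (x axis), of every probe of the 40 cilia genes (rows, grouped by role): large points are the brightest probe of a gene, small points its other probes, filled where above background on both arrays, and the band spans the 5th to 95th percentile of all genes. All filled points lie between -0.75 and 0.78, inside the dashed lines at 2-fold, and filled probes of 1 gene can stand on either side of 0, as for ift122 and arl13b.

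The 6 BBSome genes had a median difference of 0.34, with 4 above 0 and 2 below 0. The gene ttc8, which encodes the subunit also known as Bbs8, had log2 levels of 8.58 on the Tg array and 7.89 on the WT array, a difference of 0.70 or 1.62-fold. That value came from its probe at chr17:49437403-49437462, and its other probe, not above background, differed by -0.19. The log2 level of bbs4 was 7.37 on the Tg array and 6.77 on the WT array, where it lay 0.05 above the limit, and the difference was 0.61. Its other 3 probes were not above background and differed by -0.24 to 0.22. For bbs1 the log2 level was 6.87 on the Tg array and 7.53 on the WT array, a difference of -0.66, and its other probes, below the limit on both arrays, differed by -0.04 and -0.10. Of the 3 BBSome genes past 1.5-fold, then, none had a further probe above background on both arrays.

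The other BBSome genes differed by less. The log2 level of bbs2 was 10.66 on the Tg array and 10.16 on the WT array with a single probe, a difference of 0.49. For bbs5 it was 8.93 on the Tg array and 8.75 on the WT array, and its probes differed by 0.18 and 0.32. For bbs7 it was 9.92 on the Tg array and 9.97 on the WT array, and its probes differed by -0.05 and 0.18. The genes bbs10 and bbs12 encode chaperonin-like proteins that help the BBSome assemble. The lowest difference of all cilia genes was that of bbs12, with log2 levels of 8.03 on the Tg array and 8.78 on the WT array, a difference of -0.75, so that the WT signal was 1.68-fold the Tg signal. Its other probe differed by -0.54, but lies on the same stretch of an unplaced scaffold and shares 57 bases with the first. The gene bbs10 was not above background on either array.

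Genes of the ciliary membrane and the transition zone, the gate at the base of the cilium, were few. The small GTPase gene arl13b had log2 levels of 10.14 on the Tg array and 10.10 on the WT array, a difference of 0.04, and its other probes above background differed by 0.02 and -0.39. The transition zone gene b9d1 had log2 levels of 7.59 on the Tg array and 7.30 on the WT array, a difference of 0.29 from a single probe. The cation channel gene pkd2, which is required for left-right asymmetry, was above background on the Tg array only, with log2 levels of 6.85 on the Tg array and 6.58 on the WT array, which sets a lower bound of 0.12 for its log2 difference. The genes arl13a and pkd2l1 were not above background on either array.

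The 8 centrosomal and basal body genes had a median difference of -0.02, with 4 above 0 and 4 below 0. The gene cep55l is the paralog of cep55, which in human cells acts at the midbody when dividing cells separate. Its log2 level was 8.80 on the Tg array and 9.40 on the WT array, a difference of -0.60 (chr12:5416931-5416990), the lowest of these genes. The gene cep290, of the transition zone, whose mutation in humans causes retinal degeneration, had log2 levels of 8.91 on the Tg array and 9.42 on the WT array, a difference of -0.51. Both values rest on a single probe. For ofd1, of the centriole tip, the log2 level was 7.97 on the Tg array and 8.23 on the WT array, a difference of -0.26, and for cep76, which limits centriole duplication, it was 8.91 on the Tg array and 9.07 on the WT array, with -0.16 and -0.15 by its 2 probes.

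The other centrosomal genes were higher on the Tg array, by less than 1.5-fold. The log2 level of cep63, which promotes centriole duplication, was 8.45 on the Tg array and 8.08 on the WT array, a difference of 0.37. For cep97, which with Cp110 caps the centriole and holds back cilium formation, it was 11.31 on the Tg array and 11.02 on the WT array, a difference of 0.29. The genes cep70 and cep78 differed by 0.18 and 0.11.

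The 3 Spag genes of the pattern have different functions and did not lie on the same side. The gene spag1 (now spag1a), of dynein arm assembly, had log2 levels of 10.94 on the Tg array and 10.40 on the WT array, a difference of 0.54, and its other probe, not above background, differed by 0.30. The gene spag6, of the central pair of motile axonemes, had log2 levels of 8.29 on the Tg array and 8.72 on the WT array, a difference of -0.43 from a single probe. The gene spag7, which fits the pattern by its name only, had log2 levels of 12.42 on the Tg array and 12.43 on the WT array, and its 3 probes differed by -0.02 to -0.26.

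The dynein heavy chain, radial spoke and tektin genes of the pattern lay near or below the limit. Of 6 such genes, 1 was above background on any array, tekt2, whose product is a filament protein of the axonemal doublets, and on the WT array only: its log2 levels were 6.63 on the Tg array and 6.83 on the WT array. The dynein heavy chain genes dnah7 and dnah9, the radial spoke genes rsph3 and rsph9, and tekt3 had log2 levels of 5.59 to 6.39 on the Tg array and 5.71 to 6.22 on the WT array, with no ranking between them, since probes are not compared in level. The median level of the receptor probes was 5.61 on the Tg array and 5.60 on the WT array. Whether these genes differed was therefore not measurable here. In whole embryos, fewer cells of a type and less RNA per cell cannot be told apart.

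Several probes of a gene give the only check on a difference within an array. Of the cilia genes, 12 had at least 2 probes above background on both arrays: in 4 all differences were above 0 (ift20, ift52, ift88 and bbs5), in 4 all were below 0 (ift57, bbs12, cep76 and spag7), and in 4 the signs were mixed (ift122, ift172, bbs7 and arl13b). The SD between probes of 1 gene, pooled over the 12 genes, was 0.17, against 0.28 over 5855 such genes of the series. It is a spread between probes on the same arrays, some of them overlapping, and not an error between embryos. The 77 probes lie on 22 chromosomes, and 6 of them on unplaced scaffolds, in the coordinates of the files. The files name no genome build for the chromosomes, and the scaffold names are those of Zv8, so exons and UTRs are not given here.

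The pattern was read on the array's own symbols, which are old, and found none for tctn, nphp, cc2d2a, the dynein intermediate and light chains or the assembly factors. Current names brought in 38 further genes that fit it, a step added after seeing the data. Of these, 30 were above background, again with 0 at least 2-fold higher and 0 at least 2-fold lower, and with a median difference of -0.02. The outer-arm dynein light chain gene dnal1 had log2 levels of 9.42 on the Tg array and 8.48 on the WT array, a difference of 0.94 or 1.91-fold from a single probe. It was the 1 gene of the 30 past 1.5-fold in the higher direction (3.33%), and 3 were past it in the lower direction (10%). Over all genes above background the shares were 12.3% and 12.5%. The 4 dynein intermediate and light chain genes above background, of 7, had differences from 0.00 to 0.94, with a median of 0.37. The further tektin and radial spoke genes tekt1, tekt4 and rsph10b were above background on both arrays, at 0.54, -0.02 and -0.06. The IFT-B gene ift74, whose protein pairs with Ift81, had log2 levels of 11.70 on the Tg array and 11.23 on the WT array, a difference of 0.47, with -0.11 to 0.44 at its other probes.

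The further centrosomal genes lay mostly below 0. Of 9 such genes above background on both arrays, 7 had a difference below 0 and 2 above 0, with a median of -0.34. Over all genes above background on both arrays, 47.3% had a difference above 0. Among the 7, cep57 was at -0.23, but its other probes above background gave -0.33 and 0.39. The lowest was cep57l1, a paralog of the centrosomal gene cep57, with log2 levels of 10.40 on the Tg array and 11.36 on the WT array, a difference of -0.96 from a single probe. The log2 level of cep128, of the mother centriole, was 8.77 on the Tg array and 9.38 on the WT array, a difference of -0.61. Also at least 1.5-fold lower was spag1b, at -0.87, but its other probe above background gave -0.09. With the further genes included, the median over 17 centrosomal genes was -0.23, against -0.02 for those of the pattern alone.

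Ciliary genes with other names were counted from lists, without the genes above. In the list of other transport genes and motors, 26 of 30 with a probe were above background, 0 were 2-fold higher and 0 were 2-fold lower, and the median difference was 0.06. The gene dync2i2, an intermediate chain of the dynein-2 motor for the way back, had log2 levels of 9.33 on the Tg array and 8.39 on the WT array, a difference of 0.94, and its other probe above background on both arrays gave 0.80. The lowest of the list was the IFT-A gene ttc21b at -0.52. In the list of other motile axoneme genes, 29 of 38 were above background, 1 was 2-fold higher and 0 were 2-fold lower, and the median was 0.05. The 1 gene was tppp3, which encodes a tubulin-binding protein, with log2 levels of 8.81 on the Tg array and 7.31 on the WT array, a 2.82-fold difference. Its other probe was not above background on the WT array.

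In the list of other transition zone, basal body and centriole genes, 33 of 43 were above background, 0 were 2-fold higher and 0 were 2-fold lower. The median was -0.13, with 10 above 0 and 22 below 0. The list also holds the transcription factor genes hnf1ba and hnf1bb, which its name does not cover and which are among the 33. Of these, hnf1ba was at -0.12. The centriole cartwheel gene sass6 had log2 levels of 9.75 on the Tg array and 10.49 on the WT array, a difference of -0.75, and its other probe was not above background on the Tg array. The kinase gene plk4, which starts centriole duplication, had log2 levels of 11.87 on the Tg array and 12.42 on the WT array, a difference of -0.55, and its partner stil had -0.52 and -0.53 by its 2 probes. The highest of the list was the centrin gene cetn2, at 0.92 from a single probe. Its paralog cetn3 was at 0.15, with 0.51 and 0.43 at its other probes, also above background.

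Of the regulators of ciliogenesis, 12 of 14 were above background, 0 were 2-fold higher and 1 was 2-fold lower, and the median over the 11 above background on both arrays was -0.39, with 4 above 0 and 7 below 0. The forkhead gene foxj1a, which in zebrafish switches on the motile cilia programme, had log2 levels of 9.67 on the Tg array and 9.56 on the WT array. Its difference was 0.10, but -0.12 with its other probe above background. The paralog foxj1b had -0.39, and -0.57 with its other probe above background. The gene rfx2, of the Rfx factors that activate ciliary genes, had log2 levels of 8.30 on the Tg array and 9.10 on the WT array. Its difference was -0.80, and -0.95 with its other, dim probe. The gene rfx1a had 0.80, but -0.11 with its other, dim probe. The 1 gene past 2-fold was myb, which acts in multiciliated cells and also in blood progenitors, with log2 levels of 8.77 on the Tg array and 9.80 on the WT array, a difference of -1.03. Its other probes above background gave -0.96 and 0.13.

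**Figure D3:**
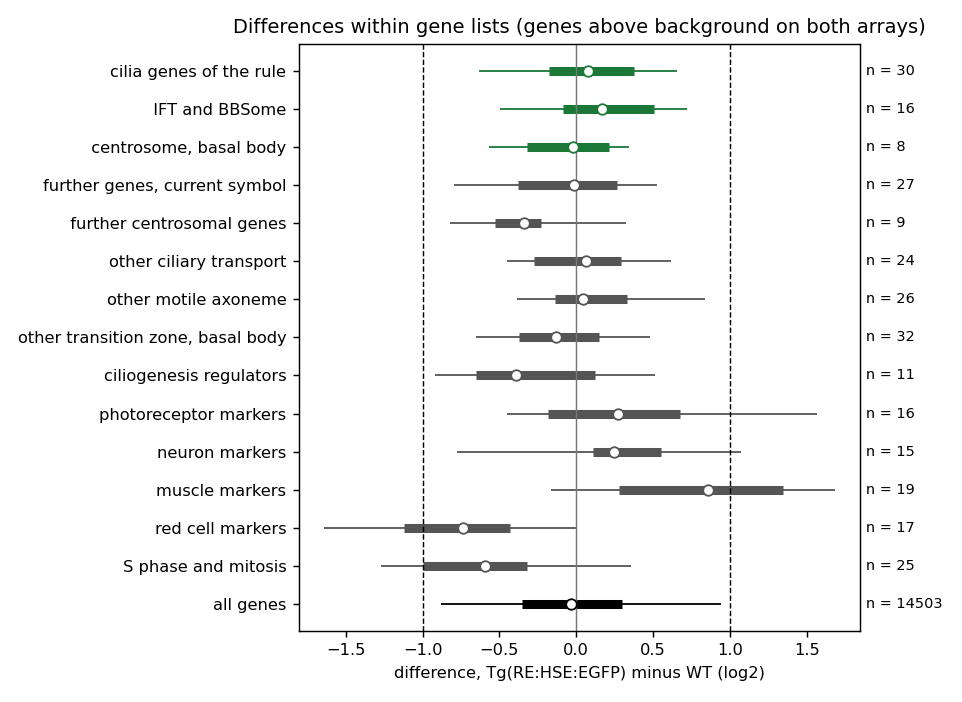
Log2 difference, Tg(RE:HSE:EGFP) minus WT (x axis), within each gene list (rows, with the number of genes above background on both arrays): the circle is the median, the thick bar the interquartile range and the thin line the 5th to 95th percentile over genes, with dashed lines at 2-fold. The cilia genes (median 0.07) sit near all genes (-0.03), while muscle markers (0.86) and red cell markers (-0.74) lie away from 0.

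Markers of cells that carry cilia, and of cells that make up much of the embryo, were read from fixed lists, and their part in the differences above was not tested. All 25 proliferation markers were above background, 0 were 2-fold higher and 6 were 2-fold lower, the median was -0.59, and the summed linear signal was 261088 on the Tg array and 448452 on the WT array. The median of this list and that of the further centrosomal genes (-0.34) were both below 0. The centrosomal genes of the pattern itself had a median of -0.02, with 4 above 0 and 4 below 0. Among the proliferation markers pcna, of the replication clamp, was at 0.38, with 0.53 at its other probe. The gene cdc20, of mitotic exit, was at -2.16, with -0.26 and 0.45 at its other probes above background. Of the muscle markers, 7 of 19 were 2-fold higher and 0 were 2-fold lower, with a median of 0.86 and a summed linear signal of 1.55e+06 on the Tg array and 909034 on the WT array.

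Of the red cell markers, 0 of 18 were 2-fold higher and 5 were 2-fold lower, with a median of -0.74, while the summed linear signal, carried by the globins, was 1.85e+06 on the Tg array and 1.91e+06 on the WT array. Of the photoreceptor markers, 20 of 32 were above background, 3 were 2-fold higher and 0 were 2-fold lower, with a median of 0.27 and a summed linear signal of 8735 on the Tg array and 6362 on the WT array. The genes counted as past 2-fold were pde6ha, of the cone phosphodiesterase, at 2.51, the arrestin gene arr3a at 1.25 and sagb at 1.06. Of the 20, 3 were above background on the Tg array only and 1 on the WT array only. These were counted by bounds that do not exclude more. The 1 was pde6ga, with log2 levels of 5.72 on the Tg array and 7.15 on the WT array. Among the 3 was gnat1, with 7.51 on the Tg array and 6.41 on the WT array. Its other probe, above background on the WT array only, differed by -0.485. The rod opsin gene rho was at -0.60 with its only probe above background, of 8, and 12 markers, among them saga and grk1b, were not above background. Of the neuron markers, 1 of 16 was 2-fold higher and 0 were 2-fold lower, with a median of 0.25 and a summed linear signal of 30430 on the Tg array and 28743 on the WT array. Of the pronephros markers, 9 of 17 were above background, with 1 that was 2-fold higher, 1 that was 2-fold lower and a median of 0.03 over 7. Their summed linear signal was 7088 on the Tg array and 8134 on the WT array. The 1 higher was slc22a2, counted by a bound of 1.06. Its other probe, above background on both arrays, differed by 0.25. The 1 lower was pax2a, at -1.02. Of the olfactory markers, 1 of 5 was above background, and ompa, ompb, trpc2b and gnal were not.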

How the data were processed

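Total RNA of heat-shocked Tg(RE:HSE:EGFP) and WT embryos was measured on 1-colour Agilent arrays, 1 per group. The log2 values deposited by the authors had been normalized and log2-transformed, per the file headers, from images read with Agilent Feature Extraction (submitters' processing notes). Its version and the normalization method are not given in the sources used here. When each array was sorted, the paired values differed by at most 0.026 at 99% of ranks. The table of the whole series held the same values at all 43553 probes.

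Each array's 75th percentile (9.59 on both arrays) was subtracted for the differences, and levels are printed as deposited. The probe with the highest mean stood for its gene. A gene above background on 1 array was counted by its bound. Probes were named through RefSeq accessions (26989), current symbols (2479) or older symbols (1598) in the GRCz12tu gene table, 4374 kept the symbol of the files and 8113 stayed unnamed. Cilia genes kept the symbol of the files.

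Thresholds were 2-fold and 1.5-fold, and no test was run. The cilia genes, lists and alternatives were chosen with earlier results of these data known. Genes named by rule were those past 2-fold, the highest and lowest of each role, the 5 with the highest mean signal, up to 3 further ones of a small role, and genes whose probes disagreed strongly. The remaining cilia genes were named to account for each of them. In other lists these were the genes past 2-fold or the highest and lowest, and further ones, such as plk4, stil, rfx2 and foxj1a, were picked after their values were seen. Alternatives were other scalings, filters, probe summaries, thresholds and member lists. The steps were tested on simulated data. The software was matplotlib 3.10.9, pandas 2.3.3, numpy 2.4.6 and Python 3.11.15.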

Additional observations from a re-analysis of the deposited data

How the results depend on the processing

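The counts of cilia genes at least 2-fold higher and at least 2-fold lower stayed at 0 in 34 of 36 values, under other scalings, background limits, probe summaries and member lists and at 4-fold, and became 3 higher and 3 lower at 1.5-fold. Some of these values could not change from 0. They are those at 4-fold, for parts of the cilia genes, for genes above background on both arrays, and from the identical series values. The other scalings could hardly change them either, since the values of the arrays were distributed almost alike. Reading the pattern without regard to letter case left the median at 0.0745, as in the main setting. The median difference of all cilia genes ranged over 0.00 to 0.11, that of the IFT-B genes over 0.19 to 0.38, and that of the BBSome genes over 0.18 to 0.37. The centrosomal median was -0.23 once genes that fit the pattern by their current symbol were included, an alternative added after seeing the data. Of 93 values of single genes, 87 moved by less than the SD between probes. Many of them could not move: other background filters kept the same probe, and a mean over probes leaves a gene with a single probe unchanged. All that moved further did so under a mean over probes. The mean over all probes, dim ones included, brought bbs1 to -0.27, bbs4 to 0.13, ift81 to -0.21 and ttc8 to 0.25, and with it or with the mean over probes above background ift122 was at 0.09, with its sign turned, as was that of arl13b (-0.13 with the mean over all probes). The differences past 1.5-fold of bbs1, bbs4 and ttc8 thus rest on 1 probe each. No paired analysis was possible because each group has 1 array, and no array could be left out. Depth in the sense of reads does not apply. Signal over background limits part of the values, since 8 of 40 cilia genes were below the limit on both arrays. The precision of the others is limited by the 1 array per group.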
